A study of Drosophila melanogaster with 2 samples.

Results

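The genes described here encode the splicing machinery of the *Drosophila* flight muscle and the regulators that steer it: Sm and LSm proteins, proteins of the U1 and U2 snRNPs, the factors that read the branch point and the 3′ splice site, Prp proteins, SR proteins with their partner *tra2*, and splicing regulators known from muscle. They were listed by name and function, with earlier results of these data known. All 37 were found among the 13931 genes of the expression table. Their levels were compared between indirect flight muscles (IFMs) of *bs* KD flies (1151>bs[RNAi KK108659]) and of control flies (1151/+), which carried the driver alone. The *bs* gene, *blistered*, encodes the *Drosophila* ortholog of the transcription factor SRF. The 1151-Gal4 driver is active in myoblasts before muscle differentiation begins, and the RNAi construct targets the *bs-RA* and *bs-RC* transcripts but not *bs-RB*. Each genotype is represented by 1 library, made from the dissected IFMs of 4 females that had been kept for 3 days at 29°C. No difference below therefore has a replicate check, and none was tested.

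The spliceosome removes introns from pre-mRNA. Its building blocks are the snRNPs, particles of small nuclear RNA and protein: U1 pairs with the 5′ splice site, U2 with the branch point, and the U4, U5 and U6 particles then join to form the catalytic centre. SR proteins and other RNA-binding regulators decide which exons are kept. In insects, flight muscle is known for forms of sarcomere proteins, produced by alternative splicing, that leg and jump muscles do not share.

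Levels are given as TPM (transcripts per 1000000 transcripts), a unit already divided by transcript length, so that genes can be compared with each other. Read counts are given in whole reads, at a depth of 17701056 reads for *bs* KD and 18776930 for the control. Changes are log2 ratios of the *bs* KD level over the control level, each raised by 1 TPM, which understates the change of weakly expressed genes. A gene was called detected if either library reached 1 TPM, and a log2 change of 1 (2-fold) was used to count genes. Ratios were taken without the added 1 and carry exact 95% counting intervals. These cover counting error only, not differences between flies or dissections.

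*bs* itself stood at 1.80 TPM (88 reads) in *bs* KD and 2.75 TPM (133 reads) in the control, a ratio of 0.656 (interval 0.495 to 0.865), and this sum over transcripts does not separate the targeted ones from *bs-RB*. For the targeted transcripts, the study reported a marked reduction by qPCR in dissected flight muscles of KD flies. All 4 flight muscle markers were detected in both libraries and summed to 38002 TPM in *bs* KD and 60089 TPM in the control. *Act88F*, the flight muscle actin gene, made this difference, with 7471 TPM in *bs* KD and 33116 TPM in the control, and the other 3 markers summed to 30530 TPM in *bs* KD and 26974 TPM in the control. Markers of other tissue were far lower but not absent. Glial markers summed to 192 TPM in *bs* KD and 89.6 TPM in the control, tubular muscle markers to 72.4 TPM in *bs* KD and 23.0 TPM in the control, and gut markers to 10.9 TPM in *bs* KD and 4.21 TPM in the control. Members of a list did not all go one way. Most of the glial sum came from *Gs2*, at 105 TPM in *bs* KD and 74.9 TPM in the control, and *nrv2*, at 84.6 TPM in *bs* KD and 10.4 TPM in the control. The glial gene *moody* was lower, at 1.90 TPM in *bs* KD and 3.66 TPM in the control, as were *repo* and *alrm*, which stayed under 1 TPM in both libraries. Of the tubular muscle markers *Act79B* was nearly level, at 19.5 TPM in *bs* KD and 18.9 TPM in the control, while *Act57B* and *TpnC41C* were higher in *bs* KD. Among the detected gut markers *LManII* was lower, at 0.630 TPM in *bs* KD and 1.12 TPM in the control. The sum of the tracheal markers went the other way, with 12.7 TPM in *bs* KD and 40.6 TPM in the control. Its largest falls were in *verm*, *serp* and *Gasp*, while *dysf* was higher, at 3.95 TPM in *bs* KD and 2.24 TPM in the control. Fat body, hemocyte and neuron markers summed to at most 22.4 TPM in either library. Of the 7 ovary markers 1 was detected in each library, and 5 stood at 0 in *bs* KD and 2 in the control. The part of other cells in the values below was not tested, and in bulk RNA more cells of a type and more RNA per cell cannot be told apart.

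A few genes for small snRNP proteins stood at least 2-fold higher in *bs* KD, while others of the same classes did not. The median level of the 37 genes was close to that of all detected genes in *bs* KD and lower in the control. Together the 37 genes held 296.1 TPM in *bs* KD and 172.8 TPM in the control, which is 0.0296% of all TPM in *bs* KD and 0.0173% in the control. Their median level, taken over all 37 whether detected or not, was 4.99 TPM in *bs* KD and 3.39 TPM in the control. That of all detected genes was 4.91 TPM in *bs* KD and 4.50 TPM in the control. Of the 37, 33 were detected. Among these, 6 were at least 2-fold higher in *bs* KD (18.2%), where 9.38% of all 6384 detected genes were. None was 2-fold lower, where 6.05% of all detected genes were. The 6 genes were *SmE*, *SmF* and *SmG* of the Sm ring and *snf*, *Sf3b5* and *Sf3b6* of the U1 and U2 snRNPs. They summed to 128.4 TPM in *bs* KD and 45.0 TPM in the control, a ratio of 2.85. All 6 have short transcripts, and among all detected genes of that length class 22.7% were 2-fold higher. The other 31 genes summed to 167.7 TPM in *bs* KD and 127.8 TPM in the control, a ratio of 1.31. The median log2 change was 0.41 over the 33 detected genes and 0.07 over all detected genes. The 1804 genes that reached 10 TPM in the 2 libraries alike had a median log2 ratio of 0.13, and relative to this shift the median of the 33 genes was 0.28.

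**Figure D1:**
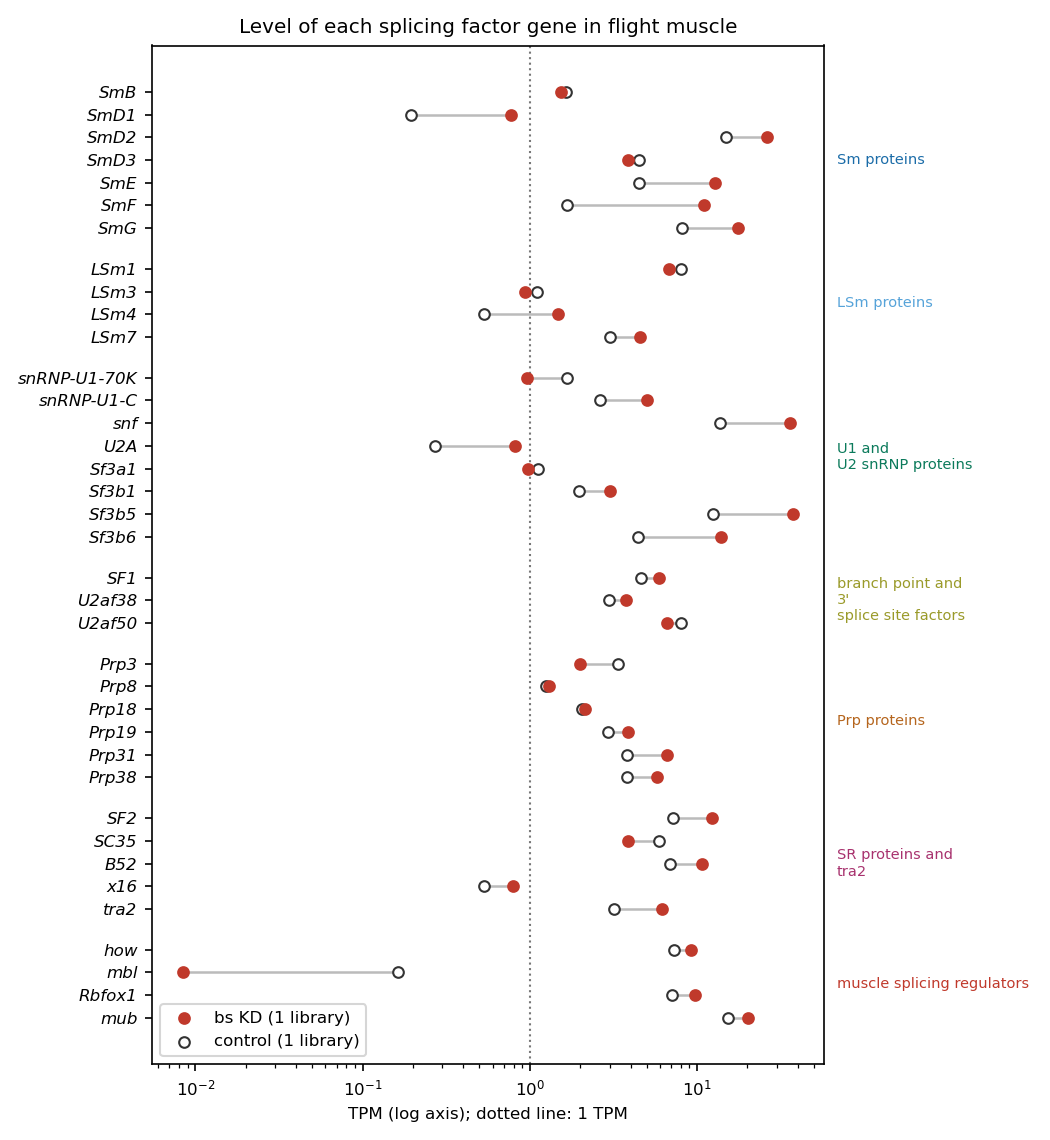
Level of each of the 37 splicing factor genes in TPM (log axis), grouped by class; filled red points are the *bs* KD library, open points the control library, and grey lines join the 2 values of a gene. Most genes lie below 10 TPM in both libraries, and *SmF*, *SmE*, *snf*, *Sf3b5* and *Sf3b6* show the widest gaps to the right among genes above 1 TPM.

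By counting error alone, 19 of the 33 genes had a ratio interval wholly above 1, where 37.7% of all detected genes did. For 3 genes (*snRNP-U1-70K*, *Prp3* and *SC35*) it lay wholly below 1, where 29.2% of all detected genes did, and for 11 it included 1. With the effective length of each gene held equal in both libraries, 18 intervals lay above 1 and 2 below, since *LSm4* and *snRNP-U1-70K* then included 1. Depth limits many of these ratios: 27 of the 37 genes stayed under 10 TPM in both libraries and 23 had fewer than 100 reads in the control.

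The Sm proteins form a ring of 7 around the small nuclear RNAs of U1, U2, U4 and U5, each protein present once. Their transcripts were far from equal. In *bs* KD they ranged from 0.777 TPM for *SmD1* to 26.2 TPM for *SmD2*, a span of 33.8-fold, and in the control from 0.195 to 15.0 TPM for the same genes, a span of 76.5-fold. As a class they summed to 73.6 TPM in *bs* KD and 35.6 TPM in the control, with a median log2 change of 0.89 over the 6 detected members.

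*SmE*, *SmF* and *SmG*, which sit side by side in the ring, were the Sm genes past 2-fold. *SmF* (FBgn0000426, on 2R from 12183844 to 12184310, genome Release 6) was at 11.0 TPM (66 reads) in *bs* KD and 1.67 TPM (10 reads) in the control. Its ratio of 6.56 (interval 3.35 to 14.3) was the highest of the detected splicing factor genes, and its log2 change of 2.16 stood above that of 99.0% of all detected genes. *SmE* (FBgn0261790, 2L from 7884930 to 7885450) was at 12.8 TPM (88 reads) in *bs* KD and 4.52 TPM (31 reads) in the control, a ratio of 2.82 (interval 1.85 to 4.40) and a log2 change of 1.32. *SmG*, listed as *SNRPG* in the annotation (FBgn0261791, X from 16639810 to 16640419), was at 17.4 TPM (95 reads) in *bs* KD and 8.13 TPM (44 reads) in the control. With a log2 change of 1.01 and a ratio of 2.15 (interval 1.49 to 3.14) it lay at the edge of the 2-fold limit, and it fell below that limit in 6 of the 7 other settings that alter the values.

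The 4 remaining Sm genes were not past 2-fold. *SmD2* was the most abundant Sm transcript in both libraries, with 26.2 TPM (291 reads) in *bs* KD and 15.0 TPM (165 reads) in the control, and its ratio of 1.75 (interval 1.44 to 2.13) had an interval above 1. *SmB* showed little difference, at 1.54 TPM (17 reads) in *bs* KD and 1.64 TPM (18 reads) in the control. *SmD3*, the partner of *SmB* in the ring, was at 3.89 TPM (41 reads) in *bs* KD and 4.48 TPM (47 reads) in the control. Both had intervals that included 1, from 0.455 to 1.93 for *SmB* and from 0.556 to 1.35 for *SmD3*. *SmD1* was below detection, with 8 reads in *bs* KD and 2 in the control, and its ratio of 3.98 has an interval from 0.793 to 38.4.

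The LSm proteins form related rings, one on U6 snRNA in the nucleus and one, with LSm1, that promotes mRNA decay in the cytoplasm. The 4 LSm genes of this set summed to 13.7 TPM in *bs* KD and 12.7 TPM in the control, with a median log2 change of 0.17. None was past 2-fold by log2 change with 1 TPM added. These 4 genes do not stand for all Sm-like genes: in the list of other Sm-like and snRNP proteins, described below, 6 of 21 detected genes were 2-fold higher, where 9.38% of all detected genes were. The 6 include *CG9344*, *CG10418*, *CG6610* and *CG2021*, with ratios of 18.2, 5.13, 2.80 and 2.88. *LSm1* was at 6.75 TPM (54 reads) in *bs* KD and 8.05 TPM (64 reads) in the control, and *LSm3* had 7 reads in each library. *LSm7* was at 4.53 TPM (33 reads) in *bs* KD and 3.03 TPM (23 reads) in the control. All 3 ratio intervals included 1.

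*LSm4* was the LSm gene whose interval lay above 1, with 1.48 TPM (23 reads) in *bs* KD and 0.534 TPM (12 reads) in the control, a ratio of 2.77 (interval 1.32 to 6.11). Its effective length was 956 bases in *bs* KD and 1350 bases in the control, a difference of −29.2%, and at equal length the ratio is 1.96 with an interval of 0.938 to 4.33, which includes 1. Its gene model covers the same stretch (2L from 10403197 to 10405203) on the same strand as *CG17768*, so the split of reads between them is uncertain. *CG17768*, which the study lists under splicing machinery, was at 19.9 TPM (145 reads) in *bs* KD and 5.28 TPM (44 reads) in the control, a ratio of 3.76 (interval 2.67 to 5.40). It is not one of the 37 genes, and is named because *LSm4* shares its reads.

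Among the U1 and U2 snRNP proteins 3 of 7 detected genes were 2-fold higher, where 9.38% of all detected genes were. These 3 have short transcripts, and 22.7% of all detected genes in that length class were 2-fold higher. The U1 and U2 class summed to 98.0 TPM in *bs* KD and 38.3 TPM in the control. *snf* encodes the fly protein that serves both U1 and U2, where vertebrates use a pair of related proteins. It lies on X from 5309242 to 5310501 (FBgn0003449). It was at 35.8 TPM (431 reads) in *bs* KD and 13.8 TPM (165 reads) in the control, a ratio of 2.60 (interval 2.16 to 3.13) that rests on more reads than that of any other gene past 2-fold in the set. *Sf3b5* and *Sf3b6* encode the small subunits of SF3b, the part of the U2 snRNP that holds the branch point. *Sf3b5* (FBgn0040534, 3R from 9014972 to 9015341) had the highest *bs* KD level of the 37 genes, 37.5 TPM (166 reads), and 12.5 TPM (55 reads) in the control, a ratio of 3.00 (interval 2.20 to 4.15). *Sf3b6* (FBgn0035692, 3L from 6192124 to 6193179) was at 13.9 TPM (187 reads) in *bs* KD and 4.42 TPM (59 reads) in the control, a ratio of 3.15 (interval 2.34 to 4.30).

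The large proteins of the same particles did not follow to this extent. *Sf3b1*, the large scaffold subunit of SF3b, was at 3.03 TPM (202 reads) in *bs* KD and 1.96 TPM (129 reads) in the control, a ratio of 1.55 (interval 1.24 to 1.95). *Sf3a1*, of the U2 subcomplex SF3a, was at 0.970 TPM (39 reads) in *bs* KD and 1.13 TPM (45 reads) in the control, and its interval of 0.546 to 1.35 included 1. *snRNP-U1-70K*, which binds U1 snRNA and is contacted by SR proteins, was lower in *bs* KD, at 0.966 TPM (45 reads) against 1.67 TPM (66 reads) in the control, a ratio of 0.579 (interval 0.388 to 0.859). Its effective length was 16.9% longer in *bs* KD, and at equal length the ratio is 0.678 with an interval of 0.453 to 1.00, which includes 1. Within the U1 particle the small zinc finger protein gene *snRNP-U1-C*, which steadies pairing with the 5′ splice site, differed the other way. It was at 4.99 TPM (48 reads) in *bs* KD and 2.62 TPM (25 reads) in the control, a ratio of 1.91 (interval 1.15 to 3.23). *U2A*, the partner of *snf* in the U2 particle, was not detected, with 12 reads in *bs* KD and 4 in the control.

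**Figure D2:**
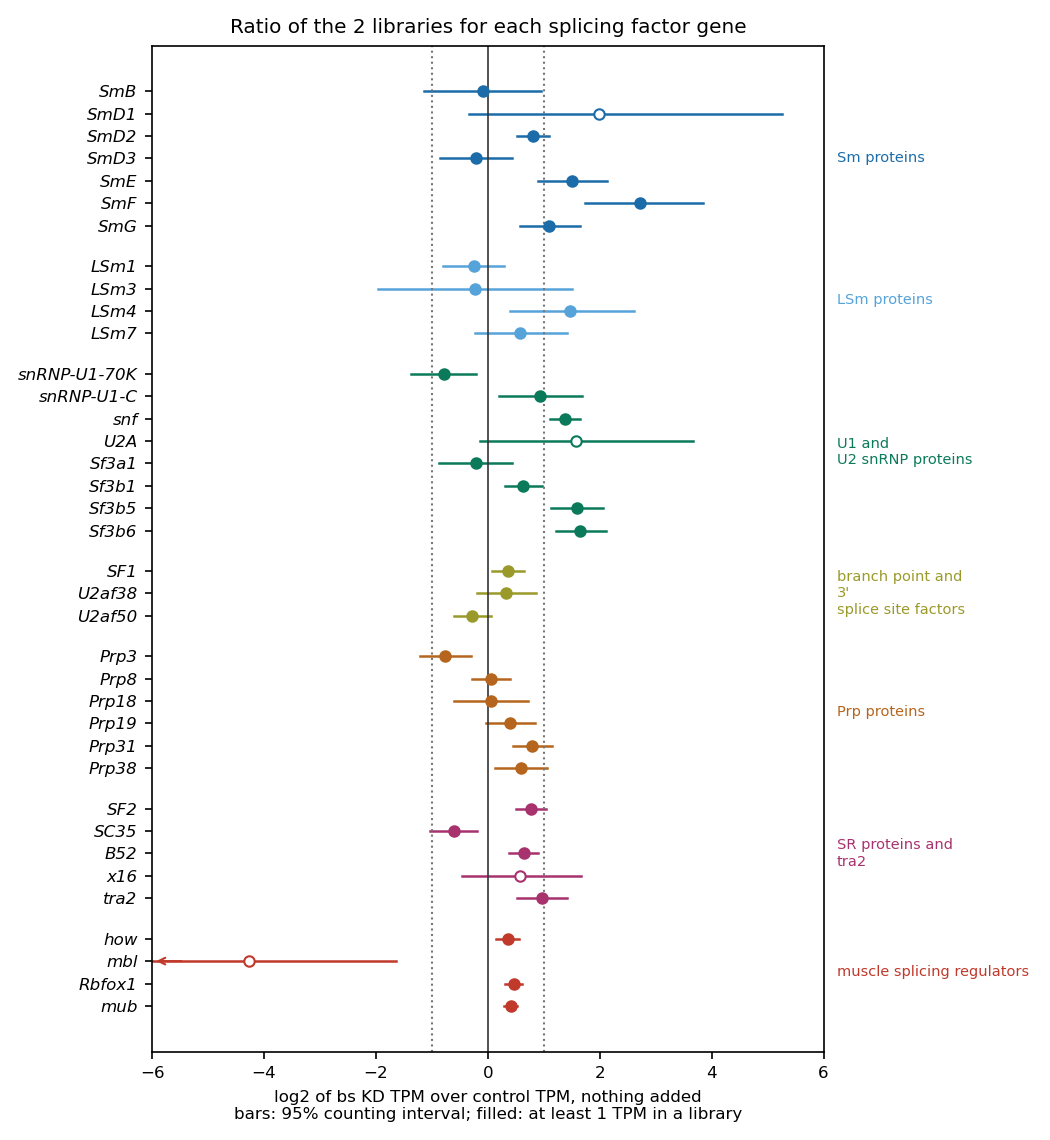
Log2 of the *bs* KD over control ratio of TPM for each of the 37 genes, without an added value, with 95% counting intervals as bars; filled points are genes with at least 1 TPM in a library, open points are not, the arrow marks an interval that runs past the axis, and dotted lines mark 2-fold. *Sf3b5*, *Sf3b6* and *snf* have intervals that lie wholly to the right of 2-fold, as does *SmF*, while those of *SmE* and *SmG* cross it.

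The factors that first mark the 3′ end of an intron differed little. *SF1* binds the branch point, *U2af50* the pyrimidine tract and *U2af38* the AG at the splice site. They summed to 16.3 TPM in *bs* KD and 15.6 TPM in the control. *SF1* was at 5.91 TPM (238 reads) in *bs* KD and 4.59 TPM (192 reads) in the control, a ratio of 1.29 (interval 1.06 to 1.56). *U2af38* was at 3.74 TPM in *bs* KD and 2.97 TPM in the control, and *U2af50* at 6.63 TPM in *bs* KD and 8.06 TPM in the control. The intervals of both U2af genes included 1, and the signs of their changes were opposite although the proteins work as a pair.

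The 6 Prp genes had a median log2 change of 0.17, and none was past 2-fold. *Prp31*, a protein of the U4/U6 particle, was the highest of them relative to the control, at 6.60 TPM (190 reads) in *bs* KD and 3.81 TPM (109 reads) in the control, a ratio of 1.73 (interval 1.36 to 2.21). *Prp3*, of the same particle, was lower in *bs* KD, at 2.0 TPM (67 reads) against 3.39 TPM (111 reads) in the control, a ratio of 0.591 (interval 0.429 to 0.807). Its log2 change of −0.55 was the lowest of the detected splicing factor genes. *Prp38*, needed to activate the assembled spliceosome, was at 5.74 TPM (103 reads) in *bs* KD and 3.81 TPM (68 reads) in the control, a ratio of 1.51 (interval 1.10 to 2.08). *Prp8*, the scaffold of the catalytic centre, was nearly level, at 1.31 TPM (157 reads) in *bs* KD and 1.26 TPM (150 reads) in the control, with an interval of 0.826 to 1.31. *Prp18*, a factor of the second step, had 42 reads in *bs* KD and 40 in the control. *Prp19*, the ubiquitin ligase of the activation complex, had 104 reads in *bs* KD and 79 in the control, and its interval of 0.973 to 1.79 included 1.

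SR proteins bind exons and recruit U1 and U2af to nearby splice sites. Of the 4 detected genes of this class, 3 stood higher in *bs* KD, each by less than 2-fold, and *SC35* stood lower. *SF2* was the most abundant of them, at 12.3 TPM (330 reads) in *bs* KD and 7.19 TPM (198 reads) in the control, a ratio of 1.70 (interval 1.42 to 2.04). *B52* was at 10.7 TPM (296 reads) in *bs* KD and 6.87 TPM (205 reads) in the control, a ratio of 1.56 (interval 1.30 to 1.87). *tra2*, an SR-like regulator best known for sex-specific splicing of *dsx*, was at 6.20 TPM (130 reads) in *bs* KD and 3.17 TPM (66 reads) in the control. Its ratio of 1.95 (interval 1.44 to 2.67) was the highest of the class. *SC35* was at 3.87 TPM (80 reads) in *bs* KD and 5.90 TPM (119 reads) in the control, a ratio of 0.655 (interval 0.487 to 0.877). *x16* was below detection, with 21 reads in *bs* KD and 14 in the control.

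Of the 4 regulators known from muscle in this set, 3 were detected, and each stood higher in *bs* KD by a similar, small amount. *bru1*, a flight muscle regulator of another list described below, was lower. *mub*, which encodes a KH domain protein that binds C-rich RNA, was the most abundant of the 37 genes in the control and rests on the most reads. It was at 20.2 TPM (1255 reads) in *bs* KD and 15.2 TPM (983 reads) in the control, a ratio of 1.33 (interval 1.22 to 1.44). *Rbfox1*, which in fly muscle helps to set the fiber-specific pattern of splicing, was at 9.67 TPM (862 reads) in *bs* KD and 7.03 TPM (619 reads) in the control, a ratio of 1.38 (interval 1.24 to 1.53). *how*, a STAR protein gene needed for muscle and tendon development, was at 9.23 TPM (475 reads) in *bs* KD and 7.23 TPM (336 reads) in the control, a ratio of 1.28 (interval 1.11 to 1.47). Their log2 changes lay between 0.31 and 0.41. With the libraries scaled to the median ratio, *mub* stood at 0.26.

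*mbl*, the muscleblind gene needed for terminal differentiation of muscle, was far below detection in both libraries. It had 1 read in *bs* KD and 20 reads in the control, which is 0.00841 TPM in *bs* KD and 0.163 TPM in the control. The ratio of 0.0516 has an interval from 0.00124 to 0.323. With 19 annotated transcripts, it had the lowest level of the 37 genes in both libraries.

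The genes past 2-fold had short transcripts. Over all detected genes the change itself went with length, so each gene was also set beside genes of its own length. Effective transcript lengths were taken from the reads per TPM of each gene, and the 6384 detected genes were divided into 5 classes of equal number. All 6 genes past 2-fold lay in the shortest class, 63 to 890 bases, where 22.7% of all genes were 2-fold higher and the median log2 change of all genes was 0.41. This class held 13 of the 33 genes, with a median of 0.77. The other 20 genes lay in the longer classes, and none of them was past 2-fold. Over all genes of those classes the share 2-fold higher was 10.9%, 5.96%, 4.78% and 2.58%, from shorter to longer.

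Within the shortest class the 13 genes were not alike. *SmF* stood above 98.0% of the class by log2 change, *Sf3b5* above 92.3%, *Sf3b6* above 91.1%, *SmE* above 88.1%, *snf* above 88.0% and *SmG* above 77.8%. *LSm1*, *SmD3*, *LSm3* and *SmB*, whose lengths lie among those of the 6, stood above 19.9%, 21.1%, 22.2% and 24.4% of the class. Short length thus went with both the highest changes of the set and with several negative ones. When the median change of genes of like length (20 classes) was subtracted, *SmF* kept a log2 change of 1.82, *Sf3b5* of 1.17 and *Sf3b6* of 1.06. *SmE* then stood at 0.97, *snf* at 0.89 and *SmG* at 0.67, under 2-fold, so 3 of the 33 genes stayed past it, where 6.2% of all detected genes did. Of the 4 genes in the longest class, *Sf3b1*, *Rbfox1*, *mub* and *Prp8* stood above 90.1%, 88.1%, 87.1% and 67.5% of it, and none was 2-fold higher.

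Across genes, Spearman's rho between effective length and log2 change was −0.40 over the 33 genes, −0.62 over 78 other detected splicing genes and −0.30 over all 6384 detected genes. These describe 2 libraries, and the genes of a library share its depth and its composition. The source of the length trend was not tested.

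**Figure D3:**
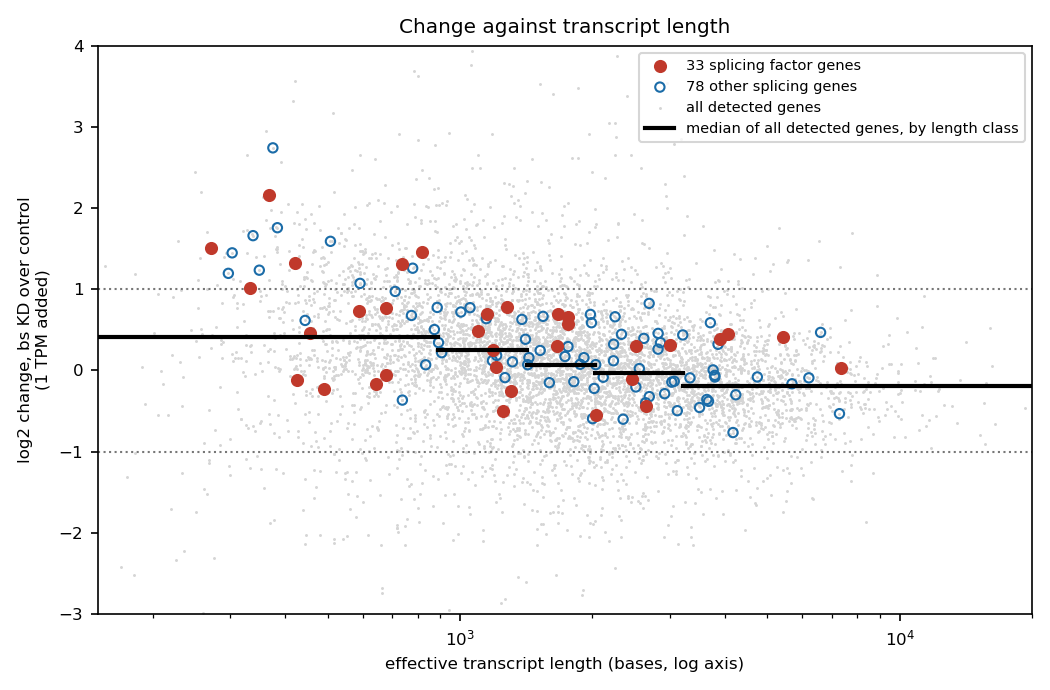
Log2 change (*bs* KD over control, 1 TPM added) against effective transcript length in bases (log axis) for the 33 detected splicing factor genes (red), 78 other detected splicing genes (blue rings) and all detected genes within the axes (grey); black bars are the medians of all detected genes in 5 length classes and dotted lines mark 2-fold. All red points above the upper dotted line lie at lengths under 890 bases.

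The other genes of the pathway were taken from 7 lists of further splicing genes, 93 of which were found in the table and 78 detected. By log2 change with 1 TPM added, 9 of these were at least 2-fold higher in *bs* KD (11.5%), close to the 9.38% of all detected genes. None was 2-fold lower by this measure, where 6.05% of all detected genes were. Without the added value *Sf3b3*, given below, was past 2-fold lower. Only by that measure, *Gem2* (ratio 5.64), *Spx* (3.69), *l(2)37Cb* (3.24) and *Tgs1* (2.86) were past 2-fold higher. So were *tra* (2.74), *cyp33* (2.57) and *qkr54B* (2.10), and all these ratio intervals lay above 1. These genes were named after their values were seen, and the share of all detected genes by that measure was not computed. The median log2 change of the 78 genes was 0.18. All 9 genes counted as higher with 1 TPM added lay in the shortest length class. It held 16 of the 78 genes, and in it 22.7% of all genes were 2-fold higher. Of the genes higher only without the added value, *tra* and *cyp33* lay in this class. The others were longer, up to 3710 bases for *qkr54B*. The list of other Sm-like and snRNP proteins held 6 of the 9, from 21 detected genes, with a median of 0.44. *Phf5a*, another small SF3b subunit, was at 24.0 TPM (151 reads) in *bs* KD and 6.41 TPM (40 reads) in the control, a ratio of 3.75 (interval 2.63 to 5.46). *Dim1*, of the U5 particle, was at 19.2 TPM (159 reads) in *bs* KD and 5.70 TPM (47 reads) in the control, a ratio of 3.36 (interval 2.41 to 4.76). The study's own selection from these libraries holds both, so they are not independent of it.

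*CG2021*, of the same list, was at 33.3 TPM (165 reads) in *bs* KD and 11.6 TPM (57 reads) in the control. *CG9344*, *CG10418* and *CG6610*, named after their values were seen, were the rest of the 6, with 8.97, 5.61 and 8.55 TPM in *bs* KD against 0.492, 1.09 and 3.06 TPM in the control. *CG9344* rests on 55 reads in *bs* KD and 3 in the control. Its ratio of 18.2 has an interval from 5.92 to 91.1.

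*Sf3b5*, *Sf3b6* and *Phf5a*, the 3 small SF3b subunit genes named here, thus had ratios from 3.00 to 3.75 and reached at least 13.9 TPM in *bs* KD. *Sf3b1* (above) and *Sf3b2*, of the same subcomplex, were also higher, *Sf3b2* with a ratio of 1.47 (interval 1.17 to 1.85). The large SF3b subunit gene *Sf3b3* went the other way, at 0.608 TPM (41 reads) in *bs* KD and 1.73 TPM (119 reads) in the control. Its ratio was 0.351 (interval 0.240 to 0.505), but its log2 change with 1 TPM added was −0.76, so it was not counted as 2-fold lower. *Sf3b2* and *Sf3b3* were named after their values were seen. Among the SF3b subunit genes named here, *Sf3b3* alone was lower in *bs* KD.

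Of the 19 detected genes of the Prp19 complex and the catalytic steps, 1 was past 2-fold by log2 change with 1 TPM added. It was *ubl*, a small ubiquitin-like splicing factor, at 49.2 TPM (239 reads) in *bs* KD and 20.9 TPM (101 reads) in the control. Without the added value *l(2)37Cb* (ratio 3.24, interval 2.01 to 5.42) and *cyp33* (ratio 2.57, interval 1.28 to 5.49) were also past 2-fold higher. The exon junction complex, laid down on mRNA by splicing, had 1 of 4 genes past 2-fold and a median of 0.67. This was *tsu* (the Y14 protein), at 22.5 TPM in *bs* KD and 10.2 TPM in the control. Of 5 detected genes for snRNP assembly, *Smn*, which loads Sm rings onto snRNA, was past 2-fold by log2 change with 1 TPM added. It was at 7.06 TPM (90 reads) in *bs* KD and 2.37 TPM (30 reads) in the control. *Gem2* (ratio 5.64, interval 1.65 to 29.9) and *Tgs1* (ratio 2.86, interval 1.45 to 6.05) were past 2-fold higher only without the added value. *tsu* and *Smn* were named after their values were seen. Like *ubl*, they lay in the shortest length class, where 22.7% of all genes were 2-fold higher. Over all detected genes this share was 9.38%.

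By log2 change with 1 TPM added, the 3 lists of other regulators of exon choice held no gene past 2-fold in either direction. Of all detected genes, 9.38% were higher and 6.05% lower. Without the added value *tra* (ratio 2.74, interval 1.46 to 5.46) and *qkr54B* (ratio 2.10, interval 1.49 to 2.98) were past 2-fold higher. The genes of these lists are long, with median effective lengths of 1722, 2618 and 3182 bases. In the length classes of these medians 4.78% to 5.96% of all genes were 2-fold higher. With 1 TPM added, none of 8 other SR and SR kinase genes was (median 0.25). Nor was any of 15 hnRNP and KH or STAR genes (median −0.08) or of 6 genes in the CELF, Elav and sex determination list (median −0.21). The most abundant splicing genes of all were in these lists, and were named after their values were seen. *Doa*, the kinase of SR proteins, was at 282 TPM in *bs* KD and 368 TPM in the control. *Rbp9*, an Elav family gene, was at 152 TPM in *bs* KD and 161 TPM in the control. *bru1*, the CELF protein that directs flight muscle splicing, was at 61.1 TPM in *bs* KD and 74.7 TPM in the control, a ratio of 0.818 (interval 0.778 to 0.859). Each of these 3 exceeded the highest level of the 37 genes, 37.5 TPM for *Sf3b5* in *bs* KD.

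**Figure D4:**
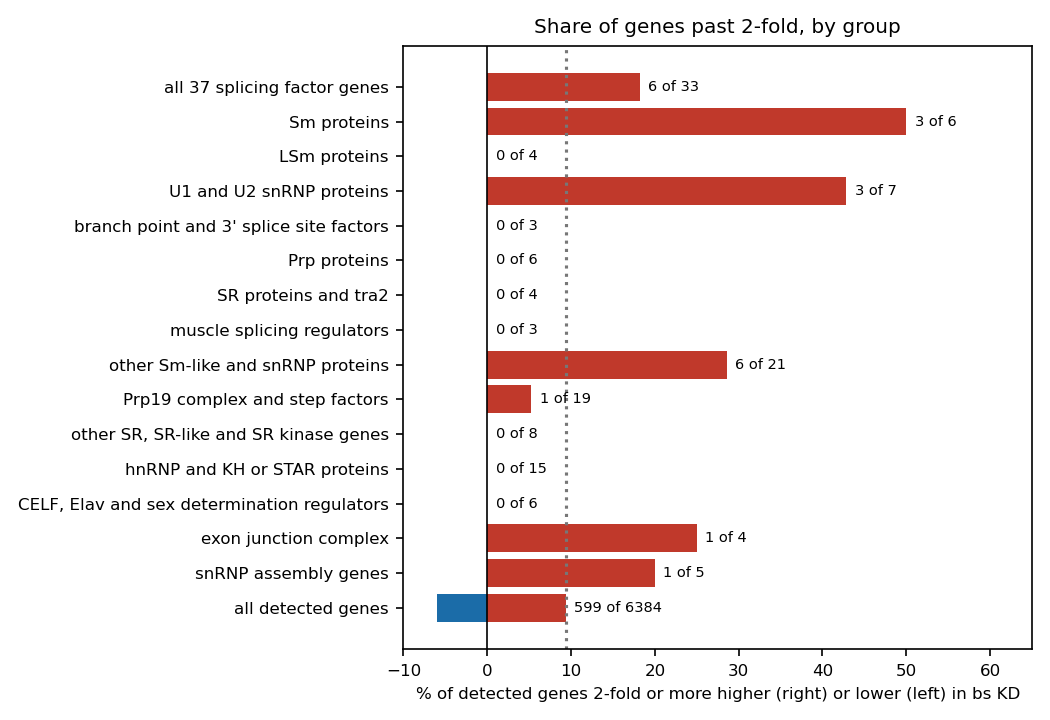
Share of detected genes that were 2-fold or more higher (red, right) or lower (blue, left) in *bs* KD, for the 37 splicing factor genes, their 7 classes, 7 lists of other splicing genes and all detected genes; labels give the number higher of the number detected, and the dotted line is the share of all detected genes (9.38%). The classes with red bars are the Sm proteins (3 of 6) and the U1 and U2 snRNP proteins (3 of 7), and no splicing class or list has a blue bar. Genes are counted by log2 change with 1 TPM added.

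The mix of transcripts of a gene shows in its effective length, since a shift to a longer or shorter transcript moves the reads per TPM. Among the 37 genes, 8 have several annotated transcripts and at least 100 reads in both libraries. None of these 8 differed by 10% or more in effective length, where 2.25% of 2528 detected genes of this kind did. Their differences ran from −7.96% for *B52* to 9.99% for *how*, in *bs* KD relative to the control. Of all 19 genes with several transcripts, at any depth, 3 differed by 10% or more: *LSm4* by −29.2%, *snRNP-U1-70K* by 16.9% and *LSm3* by 16.7%, each with fewer than 100 reads in both libraries. For *mub* the difference was −4.31% and for *Rbfox1* 0.65%. The same measure was taken for 19 flight muscle genes with regulated splicing, which the splicing regulators act on or may act on. None differed by 10%, and the range was −5.96% (*sls*) to 2.83% (*Prm*). A gene-level length shows only shifts between transcripts of unequal length, so exchanges of exons of like size would not appear in it.

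Overlapping genes limit some of these values. Without strand information in the sources, reads from a gene and from its antisense partner cannot be told apart: 15 of the 37 genes share exon sequence with an antisense gene, and 3 (*LSm3*, *LSm4* and *SF2*) with another gene on the same strand. None of the 6 genes past 2-fold shares exon sequence with another annotated gene, and 5 of the 6 have 1 annotated transcript. The 37 genes are spread over the genome, with 9 on 2L, 9 on 2R, 6 on 3L, 10 on 3R and 3 on X.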

How the data were processed

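Poly-A RNA of 1 *bs* KD and 1 control library was sequenced as single-end reads. The authors quantified it with Salmon (version not given in the sources used here) against transcripts of release 6.21 and deposited a TPM value, an estimated count of reads and a length per gene and library. The deposited DESeq2 columns (base mean, log2 fold change, standard error, Wald score, p-value, adjusted p-value) were not used, and 0 columns of per-sample values were left out.

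The deposited estimated counts sum to 19767477 (*bs* KD) and 20955053 (control), but lie on steps of 1.12 in both (88.8% and 89.7% of values from 0 to 60 whole within 0.02), so they were divided by the step before intervals were computed (exact binomial on 2 counts). For genes with several transcripts the deposited length matched the reads per TPM within 5% in 9.68% (*bs* KD) and 9.45% (control) of cases, so effective length was taken from reads per TPM. Gene models are of annotation BDGP6.54, a later release of the same assembly. The genes of the set and all lists were chosen with earlier results of these data known. Named are all 37 genes, the other splicing genes past 2-fold with at least 10 TPM in a library (at most 4 a direction) and flight muscle genes with a length difference of 10% or more. *hoip*, *SRPK* and *kep1* were not matched. Promoter motifs were not searched, as no sequences were used here. With 1 library per genotype there were no tests, and the only precision is that of counting. Alternatives covered the added value, detection, scaling, reads scaled to the library total, length and size of change. Steps were tested on simulated data. Software was Python 3.11.15, numpy 2.4.6, pandas 2.3.3, scipy 1.17.1 and matplotlib 3.10.9.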

Additional observations from a re-analysis of the deposited data

How the results depend on the processing

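The count of 6 genes higher by 2-fold moved to 3 with the length trend removed, to 12 at a size of 1.5-fold (21.3% of all detected genes) and to 19 by the counting interval, or 18 at equal length. That interval also moved the count of lower genes to 3, or 2 at equal length, from none. By log2 change with 1 TPM added, none was lower by 1.5-fold, where 15.1% of all detected genes were. Without the added value *snRNP-U1-70K*, *Prp3* and *SC35* were past 1.5-fold lower, with ratios of 0.579, 0.591 and 0.655. In the other settings 4 to 7 genes were higher: *SmG* was lost under both scalings, with *Act88F* and the mitochondrial genome left out, in reads scaled to the library total and with 5 TPM added, *SmE* also with 5 TPM added, and *LSm4* gained with 0.1 TPM added. The median log2 change of 0.41 moved to 1.16 over the 10 genes that reached 10 TPM, and ran from 0.23 to 0.51 elsewhere. Median-ratio scaling moved the median of all detected genes to −0.03, and their shares to 7.28% higher and 7.02% lower. The LSm class median turned to −0.17 with the length trend removed. By the deposited length column, 2 genes differed by 10% or more in length, in place of none. Of 255 changes of single genes over the 7 settings that alter a value, 18 left their counting interval and no call reversed. The counting-interval, equal-length and deposited-length settings were chosen after seeing the data. No paired analysis was possible because each genotype has 1 library. The planned promoter search was not run.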
